A study of Bos taurus with 6 samples.

Results

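Reads of miRNAs that mark endothelial and blood cells were examined in cultured bovine preadipocytes and adipocytes. The members were the known miRNA rows named miR-126, miR-451, miR-144, miR-486, miR-223, miR-142 or miR-150, with any arm ending. They were chosen by name, and 8 of the 771 known miRNA rows of the table met this rule: bta-miR-126-3p, bta-miR-126-5p, bta-miR-451, bta-miR-144, bta-miR-486, bta-miR-223, bta-miR-142-3p and bta-miR-150. The question put to them was how much signal of these other lineages each culture held, library by library.

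A miRNA is a short RNA that is loaded into an Argonaute protein and lowers the output of mRNAs carrying matching sites. A hairpin precursor can give a mature strand from either arm, named 5p and 3p. Some miRNAs are so concentrated in a single lineage that their reads are used as a sign of that lineage in a mixed sample. In adipose tissue, capillary endothelium, red cells and resident or circulating leukocytes are the usual sources of such reads. The sequences of these miRNAs were not used here, so the rows are given by name.

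The study compared preadipocytes, the committed precursors of fat cells, with adipocytes, 3 libraries each. Both groups were bovine cells from the adipose tissue of Holstein cattle at passage 4 to 6. They were grown in F12/DMEM medium with 10% fetal bovine serum and 1% antibiotics, and adipocytes had been induced with insulin, dexamethasone, rosiglitazone and IBMX. The labels do not state the number of animals, the days of induction or a sort against other cell types. They also do not say that the replicates were separate animals or cultures, so p-values measure the spread between these libraries, which may be technical. Serum in the medium was of the same species, and reads from serum and reads from the cells cannot be told apart in these counts. In such bulk samples fewer cells of a type and less of its RNA per cell cannot be told apart either.

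The libraries held 14525284 to 22283754 miRNA reads. Levels are given in CPM, the counts-per-million of miRNA reads, and where a row had 0 reads its level could still be as high as 3 reads, or 0.135 to 0.207 CPM by library. Values of 3 libraries are given in the order of replicates 1, 2 and 3. Such limits, and the exact 95% Poisson intervals below, cover counting error only. In all 6 libraries most miRNA reads came from 11 rows abundant in mesenchymal cells (miR-21, miR-143, miR-145, miR-199a, miR-199b, miR-214, miR-22 and miR-100), with 70.4% to 78.9% in adipocytes and 81.3% to 83.8% in preadipocytes, mainly through miR-21-5p and then miR-143. The row of miR-21-5p alone made up 64.0% to 74.1% in adipocytes and 77.9% to 80.2% in preadipocytes. Any list with that row would hold most of the reads, so the sum does not measure culture purity. Of these 11 rows 2 rose in adipocytes in the test described below, miR-199a-3p (log2 difference 8.70) and miR-100 (1.29), and 0 fell, while 26 of all 414 tested miRNAs changed (6.28%). The reads of miR-199a-3p are uncertain, since counting can divide them with near-identical miRNAs. Preadipocyte replicate 3 stood apart from the other preadipocyte libraries. Reads in exon, intron, intergenic and repeat rows made up 5.29% of its table, against 18.5% and 18.9% in preadipocyte replicates 1 and 2 and 8.21% to 12.0% in adipocytes. The main results of the members are given with and without it.

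The endothelial marker miR-126 was read in every culture. The rows of the erythroid markers miR-451 and miR-486 had at most 54 reads in any library, and the other blood miRNAs were at or near 0. These names give the lineage that a miRNA is used to mark, and which cells made the reads was not tested. A separate row for the Rfam family mir-451, described further below and left out of the sums here, held 21 to 167 reads per library. The 3p arm of miR-126 was the only member above 10 CPM, with 64.1 ± 23.4 CPM in adipocytes against 179 ± 129 CPM in preadipocytes (SD, n = 3 each). Without preadipocyte replicate 3 the preadipocyte mean was 105 CPM. The 6 blood rows together (miR-451, miR-144, miR-486, miR-223, miR-142-3p and miR-150) held 209 reads in all 6 libraries, of which miR-451 made up 78.0%. Per library they summed to 24, 12 and 24 reads in adipocytes against 56, 61 and 32 reads in preadipocytes. These sums corresponded to 0.794 to 1.60 CPM in adipocytes and 1.44 to 4.20 CPM in preadipocytes. The ranges overlapped on that scale, with the lowest preadipocyte value in replicate 3 and the other 2 at 3.21 and 4.20 CPM, and did not overlap after TMM scaling (0.568 to 1.23 and 1.95 to 4.97 CPM).

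**Figure D1:**
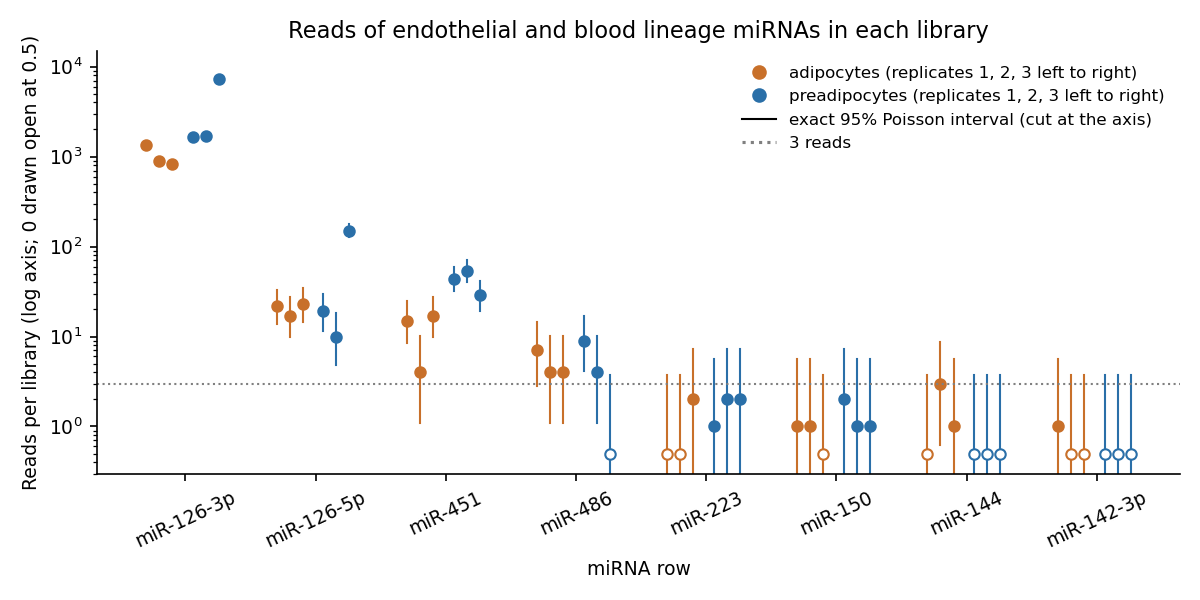
Reads per library (log axis) for the 8 member rows, with adipocyte libraries in orange, preadipocyte libraries in blue, vertical lines for exact 95% Poisson intervals and open circles for counts of 0. The 3p arm of miR-126 lies at 836 to 7294 reads, miR-451 at 4 to 54 reads, and miR-223, miR-150, miR-144 and miR-142-3p never exceed 3 reads.

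The gene of miR-126 overlaps EGFL7, a gene expressed in endothelium, in the RefSeq gene table (assembly ARS-UCD2.0, used here for names and neighbours only). Its 3p strand is known for sustaining growth factor signalling in endothelial cells. Counts of miR-126-3p were 1347, 891 and 836 in adipocytes and 1645, 1685 and 7294 in preadipocytes. The highest library was preadipocyte replicate 3, and every preadipocyte library had more reads than any adipocyte library. Among the 771 known miRNAs ordered by reads, miR-126-3p stood 119th, 134th and 134th in adipocytes. Its place was 96th, 86th and 58th in the preadipocyte libraries.

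Before any further scaling the groups lay close at their nearest points for miR-126-3p. Adipocyte replicate 1 was at 89.6 CPM (interval 84.9 to 94.5) and preadipocyte replicate 1 at 94.3 CPM (89.8 to 99.0), so these libraries did not differ beyond counting error on this scale. After scaling with the TMM factors of edgeR, which correct for a few miRNAs taking a large share of reads, the groups lay further apart. The scaled levels were 66.8, 42.2 and 42.7 CPM in adipocytes against 112, 137 and 446 CPM in preadipocytes. The log2 difference of adipocytes minus preadipocytes was -2.20 (SE 0.60), which missed the threshold (edgeR quasi-likelihood test, Benjamini-Hochberg adjusted p = 0.0637 over 414 miRNAs). Without preadipocyte replicate 3 the difference was smaller, at -1.32 (SE 0.33), and passed (edgeR adjusted p = 0.0352). In that fit 148 of 465 tested miRNAs passed, against 26 of 414 with all libraries. With library totals alone the difference of miR-126-3p was -1.48 (edgeR adjusted p = 0.106).

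The 5p arm of miR-126 was read far less often, with 22, 17 and 23 reads in adipocytes and 19, 10 and 150 in preadipocytes. Only preadipocyte replicate 3 stood out, and the other 5 libraries overlapped at 0.805 to 1.30 CPM on the TMM scale, against 9.16 CPM in that library. The log2 difference of miR-126-5p was -1.88 (SE 0.92, edgeR adjusted p = 0.189), and without preadipocyte replicate 3 it was -0.05 (SE 0.42, edgeR adjusted p = 0.935).

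**Figure D2:**
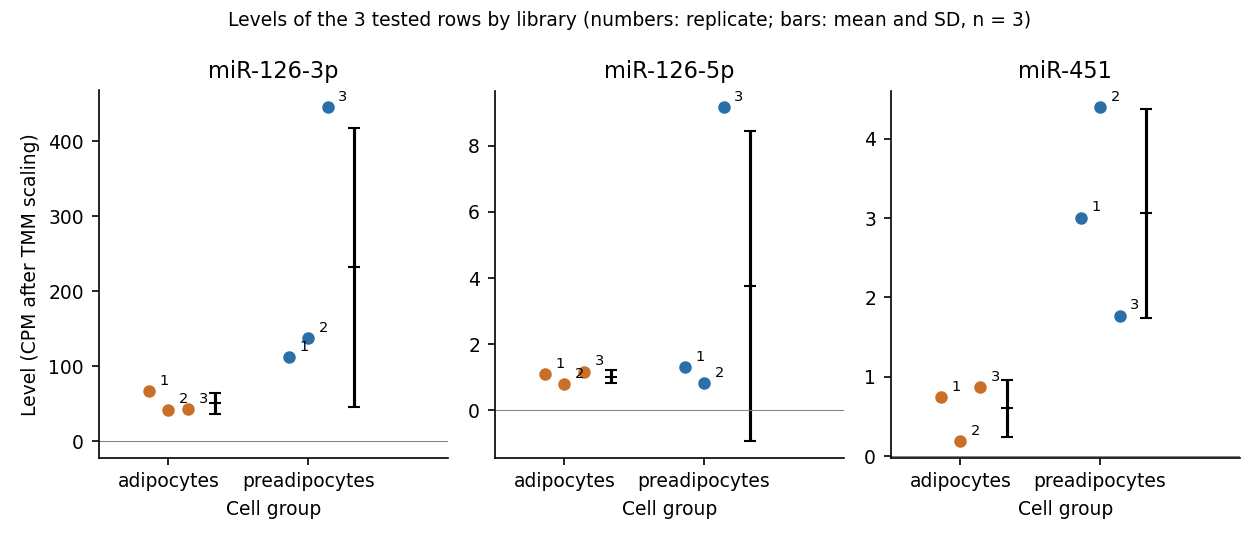
Levels (CPM after TMM scaling, linear axes) of the 3 member rows that passed the low-count filter, with a point per library, its replicate number, and the mean and SD of each group (n = 3). Preadipocyte replicate 3 is the highest library for both arms of miR-126 (446 and 9.16 CPM) and the lowest preadipocyte library for miR-451 (1.77 CPM).

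Both arms come from the same hairpin. Since both are counted within the same library, their ratio does not depend on how libraries are scaled. The deposited data type the 3p row as hairpin and the 5p row as mature, without saying what these types mean. The shares below hold only if both rows count mature strands. On that reading the 5p arm made up 1.61%, 1.87% and 2.68% of miR-126 reads in adipocytes. In preadipocytes its share was 1.14% (exact binomial 95% interval 0.689 to 1.78), 0.590% (0.283 to 1.08) and 2.01% (1.71 to 2.36). Preadipocyte replicate 3 lay within the adipocyte range and the other preadipocyte libraries below it. The log2 ratio of 3p to 5p reads, with 0.5 added to each, was 5.58 ± 0.38 in adipocytes against 6.44 ± 0.86 in preadipocytes (n = 3 each). The groups overlapped, and the difference was -0.87 (exact permutation test, two-sided, p = 0.3), where 3 libraries against 3 cannot go below 0.1. Without preadipocyte replicate 3 the difference was -1.29 (exact permutation test, two-sided, p = 0.2), and so few libraries cannot reach the threshold. The remaining preadipocyte ratios of 6.40 and 7.33 did not overlap the adipocyte ratios, the highest of which was 5.90. At the nearest points the counting intervals of the 5p share overlapped, with 1.01 to 2.42 in adipocyte replicate 1 and 0.689 to 1.78 in preadipocyte replicate 1.

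Of the erythroid miRNAs, miR-451 is among the most abundant miRNAs of red cells and is matured by Argonaute cleavage in place of Dicer. Its counts were 15, 4 and 17 in adipocytes and 44, 54 and 29 in preadipocytes. In this row all preadipocyte libraries exceeded all adipocyte libraries, and the lowest count was that of adipocyte replicate 2. The separate Rfam row of mir-451 did not show this, since the groups overlapped there and preadipocyte replicate 3 was lowest, at 21 reads. On the TMM scale the levels of miR-451 were 0.743, 0.189 and 0.869 CPM in adipocytes against 3.01, 4.40 and 1.77 CPM in preadipocytes. Its log2 difference was -2.33 (SE 0.64, edgeR adjusted p = 0.0637), and it was -2.63 (edgeR adjusted p = 0.0324) without preadipocyte replicate 3. The fit without that library called 148 of 465 tested miRNAs. In the fit of all libraries miR-451 passed the low-count filter only with the help of the preadipocyte libraries, where it was high. Its difference carries that limit. Among preadipocytes replicate 3 was the lowest library for miR-451 and the highest for miR-126-3p.

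Next to the miR-451 gene lies that of miR-144, with which it is co-transcribed in erythroid precursors. The row of miR-144 held 0, 3 and 1 reads in adipocytes and 0 in every preadipocyte library, against 163 reads of miR-451 in all. The gene of miR-486 overlaps ANK1, which encodes a membrane skeleton protein of red cells. Counts of miR-486 were 7, 4 and 4 in adipocytes and 9, 4 and 0 in preadipocytes. The groups overlapped at 0.313 ± 0.135 and 0.264 ± 0.258 CPM, and the count of 0 in preadipocyte replicate 3 allowed up to 0.135 CPM. Set beside miR-451, the preadipocyte libraries held 9 reads of miR-486 with 44 of miR-451, 4 with 54, and 0 with 29. At these counts of miR-486 a difference between the groups was not detectable.

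The leukocyte miRNAs were near the limit of detection in both groups. For miR-223, abundant in neutrophils and other myeloid cells, adipocytes held 0, 0 and 2 reads and preadipocytes 1, 2 and 2. For miR-142-3p, found across blood cell types and their precursors, the only read was in adipocyte replicate 1. For miR-150, abundant in mature lymphocytes, adipocytes held 1, 1 and 0 reads and preadipocytes 2, 1 and 1. With at most 3 reads in any library, miR-223, miR-142-3p, miR-150 and miR-144 stayed at or under the level that a count of 0 allows, and no fold is given for them. These 4 rows and miR-486 did not pass the low-count filter of edgeR. In the edgeR fit without a filter none of the 5 passed, with adjusted p from 0.324 for miR-144 to 0.907 for miR-486.

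In the order of group means the adipocyte levels were miR-126-3p, miR-126-5p (1.26 ± 0.177 CPM), miR-451 (0.717 ± 0.396 CPM) and miR-486 (0.313 ± 0.135 CPM), followed by the 4 rows at the limit. The preadipocyte order of the first 4 was the same, with miR-126-5p at 2.84 ± 3.38 CPM and miR-451 at 2.51 ± 1.21 CPM. In preadipocytes miR-126-5p and miR-451 did not differ beyond their spread, and miR-451 had more reads in replicates 1 and 2. These levels are shares of reads with no division by length. For each read of the 6 blood rows there were 56.1, 74.3 and 34.8 reads of miR-126-3p in adipocytes. In preadipocytes that ratio was 29.4, 27.6 and 228.

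Of the 3 tested members, 0 passed the edgeR test, while 26 of 414 tested miRNAs did (6.28%). Without adjustment 141 of the 414 had p below 0.05, among them miR-126-3p and miR-451. For 2 of the 3 (miR-126-3p and miR-451) TMM-scaled levels of the groups did not overlap, which held for 44.7% of all tested miRNAs. All 3 estimates were negative, at -2.20, -1.88 and -2.33, while the median over all tested miRNAs was -0.02. The first 2 are arms of the same hairpin in the same libraries, so their signs are not independent. The second was -0.05 without preadipocyte replicate 3. Settings that moved the median of all miRNAs, to -0.31 with upper-quartile factors and to 0.62 with library totals alone, left these 3 estimates negative. Over all alternatives run, the adjusted p ranged from 0.00166 (DESeq2) to 0.206 for miR-126-3p, from 0.0101 (DESeq2) to 0.231 for miR-451 and from 0.129 (DESeq2) to 0.935 for miR-126-5p. The first of these passed in 5 of 14 alternatives, the second in 3 of 13 and the third in 0 of 13. The alternatives where a member passed also called a larger share of all miRNAs. They called 49 of 414 with upper-quartile factors, 97 of 414 with DESeq2 and 43 of 217 with a minimum mean of 10 CPM. Known miRNAs alone gave 59 of 365, and leaving out preadipocyte replicate 3 gave 148 of 465. A larger share of calls did not always go with a member passing, since library totals alone called 97 of 414 and no member passed there.

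**Figure D3:**
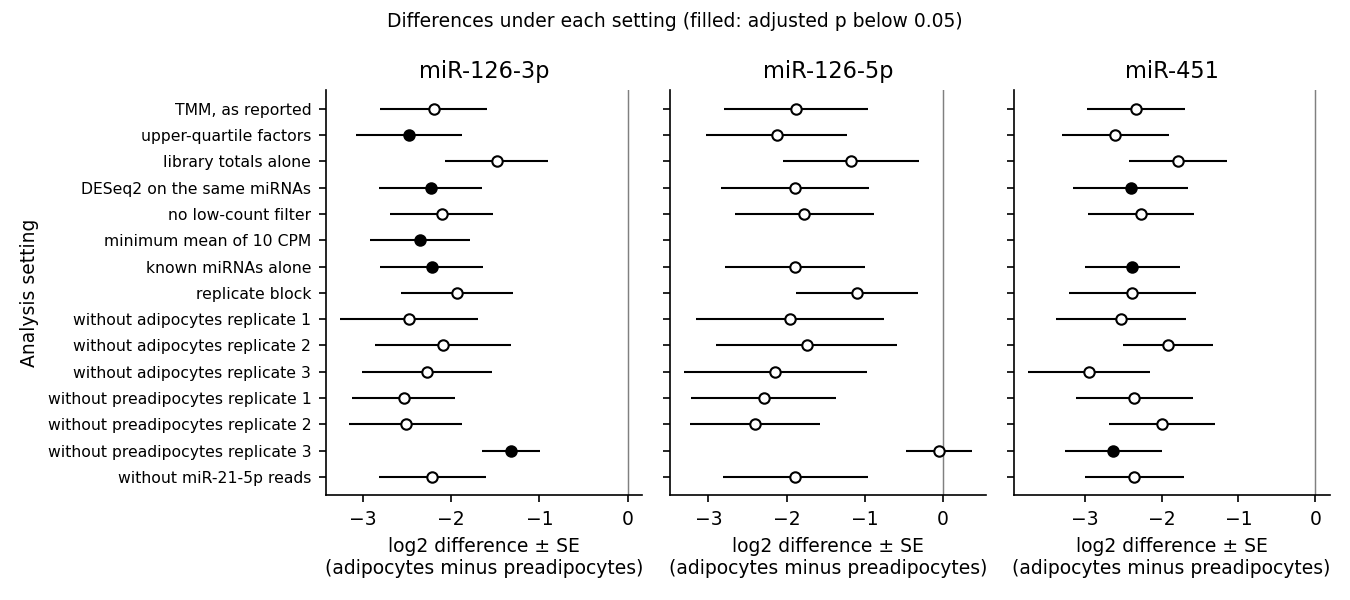
Log2 differences ± SE (adipocytes minus preadipocytes) of miR-126-3p, miR-126-5p and miR-451 under each analysis setting, with filled points where the adjusted p was below 0.05. Every estimate lies below 0, and that of miR-126-5p moves to -0.05 without preadipocyte replicate 3.

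The height of preadipocyte replicate 3 in miR-126 was set beside other miRNAs, a comparison chosen after the values were seen. Over the 201 known tested miRNAs with a mean of at least 10 CPM, the level in that library over the mean of preadipocyte replicates 1 and 2 had a median of 1.13. The ratio of miR-126-3p was 3.57, the 9th highest, and 28 of the 201 had a ratio of at least 2. The highest ratios were those of miR-2284k (288), miR-30f (146) and miR-2284m (27.7). In that library the share of exon, intron, intergenic and repeat reads was also low, as given above, and its part in the level of miR-126 was not tested.

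**Figure D4:**
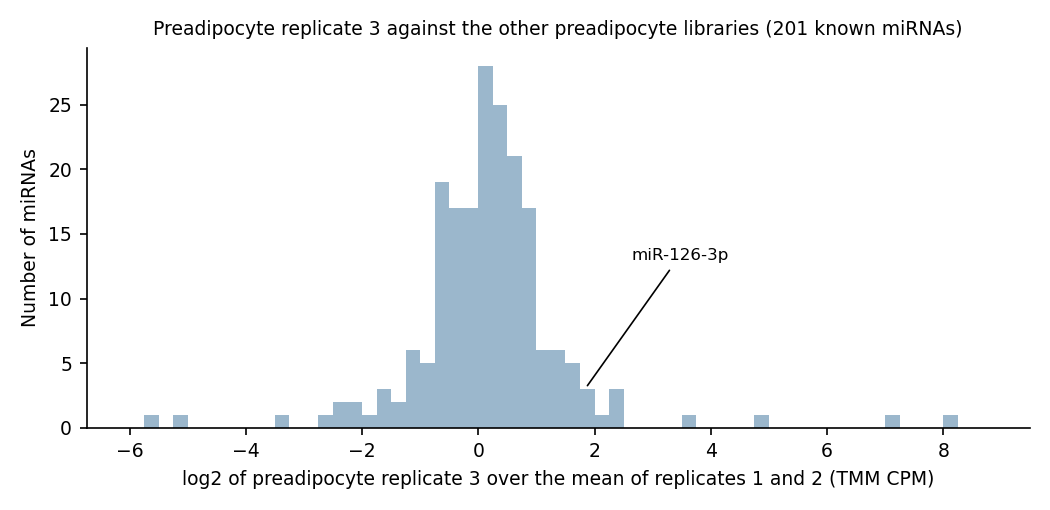
Number of known miRNAs (of 201) by the log2 ratio of their level in preadipocyte replicate 3 to the mean of preadipocyte replicates 1 and 2, both as CPM after TMM scaling. The ratio of miR-126-3p, 3.57 on the linear scale, lies in the upper tail, while the median ratio is 1.13.

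The miRNAs whose pattern over the 6 libraries was most like that of each tested member were found among 200 other known miRNAs. The measure was the root mean square difference of log2(CPM + 0.5) after TMM scaling, each centred on its own mean, where a small value means a like pattern. For miR-126-3p they were miR-503-5p (0.29) and miR-139 (0.49), against a median of 1.31. TMM-scaled levels of miR-503-5p were 10.5, 11.1 and 12.0 CPM in adipocytes against 25.9, 26.1 and 89.8 CPM in preadipocytes, so it too was highest in preadipocyte replicate 3. For miR-126-5p they were miR-424-5p (0.24), which is clustered with miR-503 in mammals, and miR-450b (0.36). TMM-scaled levels of miR-424-5p were 1352, 1344 and 1384 CPM in adipocytes against 1212, 917 and 6010 CPM in preadipocytes. For miR-451 they were miR-1306 (0.38) and miR-1296 (0.38), and neither was highest in preadipocyte replicate 3. Of these 6, miR-1296 passed the edgeR test (log2 difference -2.17, adjusted p = 0.0293). The likeness is over 6 libraries of which 1 sets much of the pattern for miR-126, and it is given as a description.

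**Figure D5:**
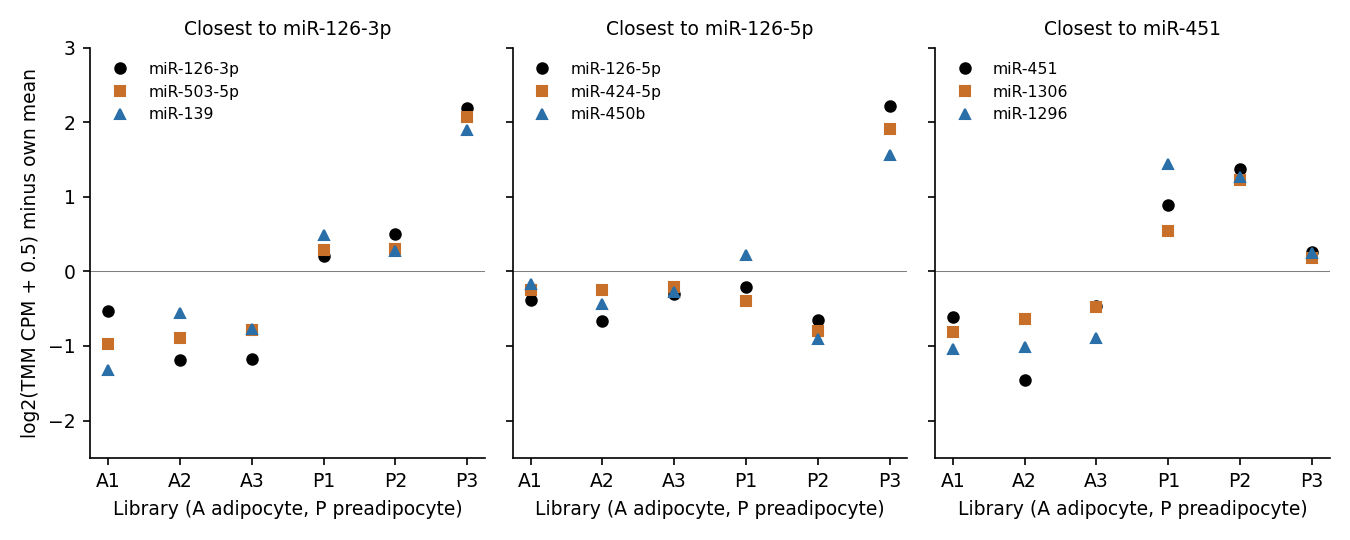
Centred log2(CPM + 0.5) after TMM scaling, by library (A1 to A3 adipocytes, P1 to P3 preadipocytes), of each tested member (black) and its closest miRNAs. Both arms of miR-126 and their closest miRNAs are highest in P3, while miR-451, miR-1306 and miR-1296 are highest in P1 or P2.

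A further list held 14 miRNAs described in blood or endothelial cells that other cells also express. Of its 13 tested rows, 1 fell in adipocytes and 0 rose, against the 6.28% of all tested miRNAs that changed, 5 estimates were positive and the median log2 difference was -0.21, against -0.02 over all tested miRNAs. The row that fell was miR-146a, a miRNA induced by NF-kB in immune and other cells, with 1, 1 and 4 reads in adipocytes. Preadipocytes held 199, 81 and 73 reads of it, and the groups did not overlap. It passed the edgeR test (adjusted p = 0.0134, and 0.00458 without preadipocyte replicate 3), but it passed the low-count filter only through the preadipocytes, and no fold is given at these adipocyte counts. The 2 most abundant rows were miR-16b, whose TMM-scaled levels were 2791 ± 255 CPM in adipocytes and 1751 ± 396 CPM in preadipocytes (edgeR adjusted p = 0.110), and miR-92a, with 1719 ± 142 against 3211 ± 477 CPM (edgeR adjusted p = 0.0588). The miRNAs of this list, with 6190 to 12186 CPM in sum, were in sum far above the 8 members. Its lowest rows, miR-363 with 1 to 7 reads and miR-146b with 8 to 32 reads per library, were in the range of the erythroid rows.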

How the data were processed

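Small RNA of 18 to 30 nt was sequenced from 3 adipocyte and 3 preadipocyte samples, grouped by the cell type in the labels. The deposited counts are raw whole reads per row, per the file headers and values. The TPM values in the deposited table equal the count divided by a constant per library, with 0 written as 0.001, and served only as a check. Per the submitters' processing notes, Bowtie2 was used. Genome build, annotation release and the handling of multi-mapping reads are not given in the sources used here.

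All 879 known and predicted miRNA rows entered the test with edgeR 4.0.16 in R 4.3.3 (TMM, filterByExpr, glmQLFit, glmQLFTest, two-sided), with Benjamini-Hochberg adjustment and calls at 0.05. Of these, 365 known and 49 predicted ones passed filtering and were fitted. DESeq2 1.42.0 was an alternative. Exact tests and intervals came from SciPy 1.17.1 in Python 3.11.15. The fit was tested on simulated data. Members and lists were chosen with earlier results of these data known. Every member row is named, as are the 2 most abundant rows of each further list, any that passed, and the 2 miRNAs closest to each tested member. Gene neighbours came from RefSeq, where all 7 member genes were found by symbol.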

Additional observations from a re-analysis of the deposited data

Results flagged for a closer look

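The table also holds rows for Rfam families, which stayed out of the comparisons since it is not stated if they share reads with the miRNA rows. Of the member families, mir-126 and mir-451 have such a row, and reads were found in both above the 3 that a count of 0 allows. In the order of replicates 1, 2 and 3, the Rfam row of mir-126 held 55, 30 and 20 reads in adipocytes and 38, 30 and 121 in preadipocytes, so that preadipocyte replicate 3 was highest there too. The Rfam row of mir-451 held 54, 84 and 59 reads in adipocytes and 93, 167 and 21 in preadipocytes. In that row the groups overlapped and preadipocyte replicate 3 was lowest, and in every library but this last the row held more reads than the miR-451 row. The difference between the groups was not tested for these rows.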

How the results depend on the processing

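The count of 26 miRNAs past the threshold (16 higher, 10 lower) was 49 with upper-quartile factors (15 and 34), 97 with library totals alone (88 and 9), 97 with DESeq2, 43 with a minimum mean of 10 CPM, 59 with known miRNAs alone and 1 to 148 with 1 library left out, 148 without preadipocyte replicate 3 and at most 8 without any of the others. It was 1 with a replicate block, where miR-126-3p and miR-451 did not pass (edgeR adjusted p = 0.174 and 0.176). Same-numbered libraries had correlations of 0.04, -0.34 and 0.05 in their deviations, and other-numbered ones -0.28 to 0.27. With 3 libraries a group these values cannot decide if the numbers pair the samples. The difference of miR-126-3p passed with upper-quartile factors (-2.48), DESeq2 (-2.23), a minimum of 10 CPM (-2.35) and known miRNAs alone (-2.22), and ranged from -2.54 to -1.32 with 1 library left out. That of miR-451 passed with DESeq2 (-2.40) and known miRNAs alone (-2.38) and ranged from -2.94 to -1.91 with 1 library left out. The cause was not tested. Known miRNAs alone and the 10 CPM minimum tested fewer rows, and the fit itself changed too. The SE of miR-126-3p was 0.58 with known miRNAs alone and 0.56 with the 10 CPM minimum, against 0.60 as first fitted. The 10 CPM minimum left out miR-451 and miR-126-5p. Every alternative run kept the negative sign of the 3 members and of the arm ratio, and none moved the call of miR-126-5p, while the arm ratio cannot pass with 3 libraries a group. Leaving out miR-21-5p reads was added after seeing the data and changed no member's call. Of 82 alternative values of levels and list sums, 29 moved by 1 SD or more, and 9 were at 0 and could not move. Dividing by miRNA reads without miR-21-5p moved every value above 0, because that total is far smaller, so the count says little about stability. Depth limits the rows at 0 to 9 reads.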

Other observations

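Markers of lineages that the member list does not cover were at mixed levels. Of 20 names looked for, 15 had a row, 16 rows in all. Endocrine and neural miR-7 was the most abundant, with 1265 ± 135 CPM in adipocytes against 1495 ± 609 CPM in preadipocytes (n = 3 each), followed by miR-128 at a mean of 63.7 CPM over the 6 libraries. The muscle miRNA miR-1 had 493, 402 and 362 reads in adipocytes and 211, 210 and 722 in preadipocytes (replicates 1, 2 and 3), more than miR-451 in every library. In that row, too, preadipocyte replicate 3 was the highest library. Of the 7 tested rows, 1 fell and 0 rose, against 6.28% of all tested miRNAs that changed in either direction. The only positive estimate was that of miR-499 (log2 difference 0.61, edgeR adjusted p = 0.173), and the 7 rows had a median log2 difference of -0.29 against -0.02 over all tested miRNAs. The row that fell was the muscle miR-133a (log2 difference -1.88, edgeR adjusted p = 0.0293), which was at -1.75 without preadipocyte replicate 3 (edgeR adjusted p = 0.0198). The liver miRNA miR-122 had at most 2 reads in any library. The 5 rows of the epithelial miR-200 family (miR-200a, miR-200b, miR-200c, miR-141 and miR-429) had at most 9 reads in any library.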
